A study of Mus musculus with 12 samples.

Results

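The removal of BMP2 at the end of an adipocyte protocol was followed by comparing 2 libraries of day 10 with 2 libraries of day 7, which are 4 of the 12 RNA sequencing libraries of the series. The day 10 cells had been kept in 2 µM rosiglitazone alone for 3 days. The day 7 cells, and the day 10 cells up to that time, had spent 4 days in 200 ng/ml BMP2 together with 2 µM rosiglitazone, and before those both groups had passed 3 days in BMP2 alone. All cells were MTΔECad, a mesenchymal mouse breast cancer line seeded at 20000 cells per cm2, and the 2 libraries of a time point came from 2 independent experiments. The series also covers 0 h (before BMP2), 6 h and day 3 (BMP2 alone) and day 5 (BMP2 with rosiglitazone). No day 10 library kept in BMP2 was among the samples, so the loss of BMP2, 3 more days in culture and 3 more days of rosiglitazone cannot be told apart. The cells are 1 line, and a difference in the number of cells of a kind and in the RNA per cell cannot be told apart in such bulk samples.

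BMP2 is a secreted ligand that binds type I and type II serine/threonine kinase receptors, which phosphorylate SMAD1 and SMAD5. These enter the nucleus with SMAD4 and switch on genes such as the Id genes, whose products bind and block basic helix-loop-helix transcription factors, and the inhibitory Smad6 and Smad7, which damp the pathway. BMPs can commit mesenchymal cells to the fat or the bone lineage. Rosiglitazone activates PPARγ, the nuclear receptor at the centre of fat cell formation.

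Levels are counts scaled to the TMM-adjusted library size (CPM), for replicate 1 and then replicate 2. Changes are log2 fold changes of day 10 over day 7 with their standard error (SE), and a gene is called when edgeR's quasi-likelihood test gave an adjusted p below 0.05 over all 12740 genes tested. The day 10 libraries held 13632754 and 15486062 counts and the day 7 libraries 16239105 and 17570366 counts. Replicates agreed closely, with a correlation of log2 CPM of 0.9937 at day 10 and 0.9933 at day 7, and with differences above counting error (chi-square per degree of freedom 5.9 and 10.9). The 10 most abundant genes took 16% and 14.7% of the day 10 counts, against 11.6% and 9.89% of the day 7 counts. Fat cell genes were abundant in every one of the 4 libraries, with 1128 and 1099 CPM at day 10 and 672 and 665 CPM at day 7 for Adipoq, which encodes the hormone adiponectin. Cdh1, the E-cadherin gene that the name of the line marks as lost, had 0.269 and 0.536 CPM at day 10, against 0.0692 and 0.247 CPM at day 7. Of 14 leukocyte and macrophage markers 3 were tested, and their summed level was 9.944 and 8.884 CPM at day 10, against 11.28 and 10.99 CPM at day 7. Ptprc, the pan-leukocyte CD45 gene, had 0 counts in all 4 libraries.

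Between day 10 and day 7, 3615 of the 12740 genes were called (28.4%). Of these 1930 were higher (15.1% of genes tested) and 1685 lower (13.2%) at day 10. With a change of at least 2-fold there were 760 genes (5.97%), 557 of them higher (4.37%) and 203 lower (1.59%). Groups did not overlap for 67.2% of the genes tested. These shares over all genes tested are the background for the list counts and for the groups without overlap given below. The previous step, day 7 against day 5, called 4815 genes (37.8%), with 628 at least 2-fold higher (4.93%) and 484 at least 2-fold lower (3.8%); both comparisons share the day 7 libraries, and the earlier step called 3128 genes without day 7 replicate 1. The count at day 10 rests partly on single libraries: 2143 genes were called without day 7 replicate 2, 2351 without day 10 replicate 1 and 2370 without day 10 replicate 2. Counts of 4 members or fewer in a list often moved by over 1.5 times when 1 library was left out or when another filter or fit was used. Among 49 gene lists, the largest median rise was in the interferon response genes and the largest median fall in the genes of the integrated stress response, followed by Notch targets and BMP targets. The Notch median, over 7 tested genes, was the value of Nrarp, which was not called (log2 fold change -0.72, SE 0.617, adjusted p = 0.417). Hey1 belongs to both the Notch and the BMP list.

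**Figure D1:**
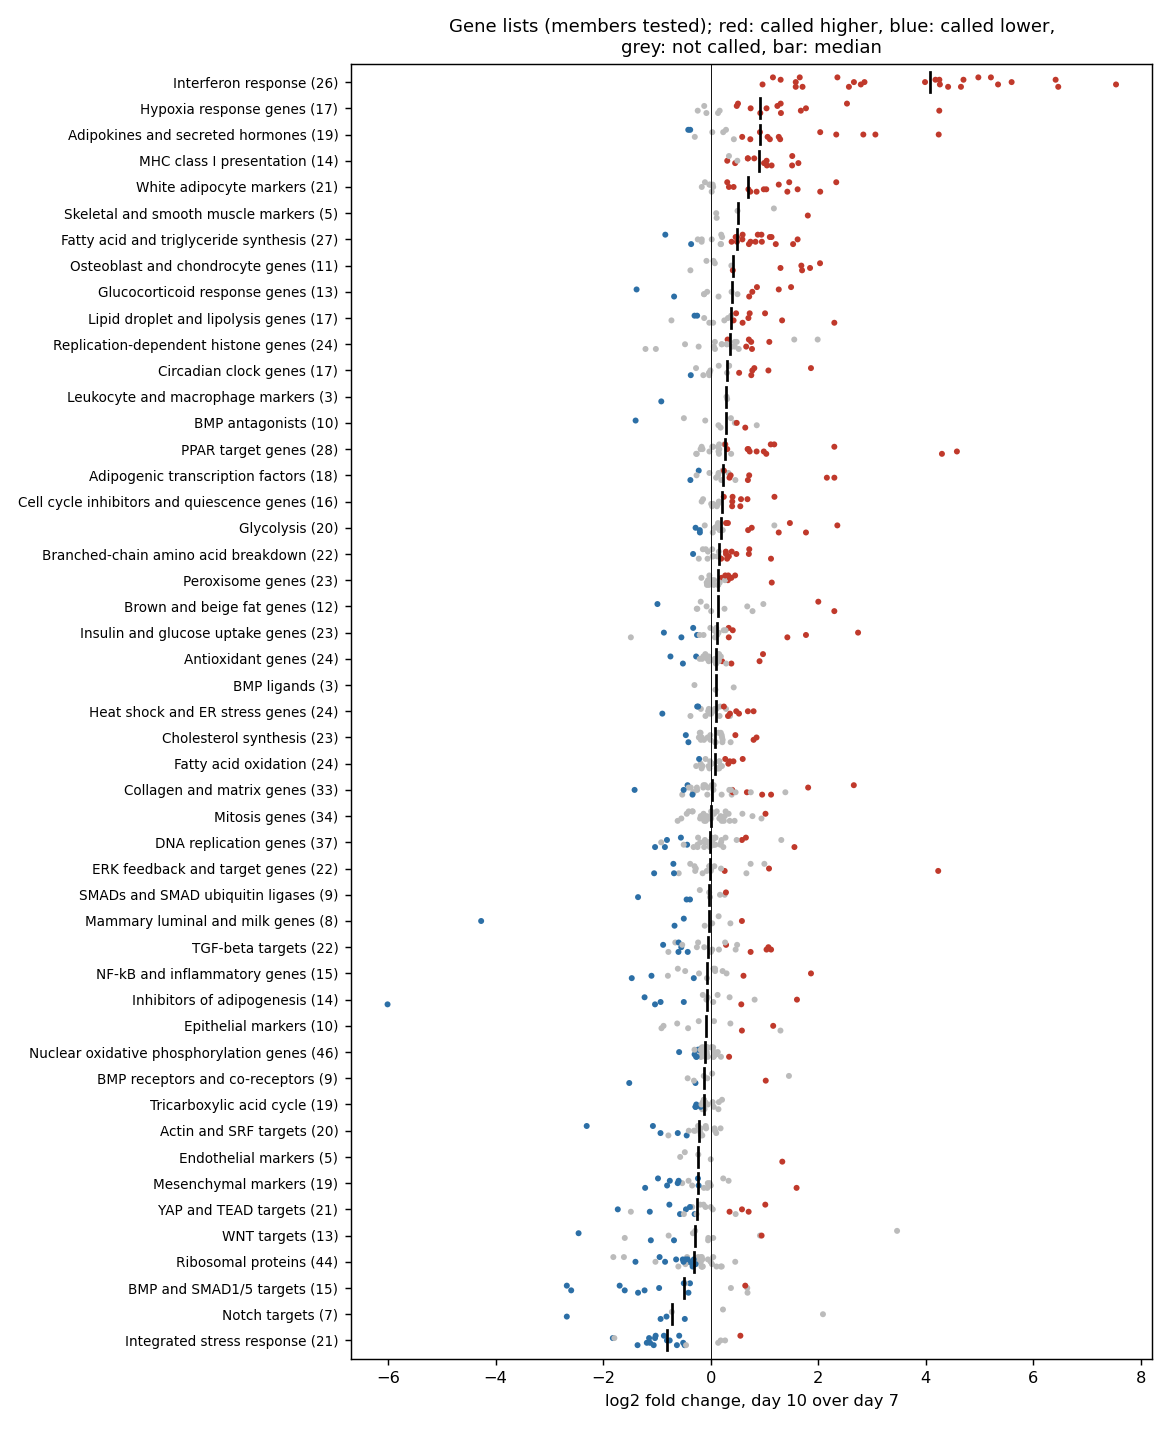
Log2 fold change of day 10 over day 7 (horizontal axis) for each tested member of 49 gene lists (rows, with the number tested), ordered by median. Red points are called higher, blue points called lower and grey points not called, and a bar marks the list's median; the interferon list stands at the top with a median of 4.08 and the integrated stress response list at the bottom with a median of -0.81, while the fitted values of Gata2 (leftmost) and other genes with 0 to 3 counts in a group depend on the prior count.

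Of the 12 called genes with the largest rise among those with at least 10 CPM on the higher side, 8 were genes known to be induced by interferon or its sensors, namely Apol9b, Oasl2, Ifit1, Ifi44, Ifit3, Usp18, Zbp1 and Dhx58. A further member was Ifnk, the gene for interferon kappa, a type I interferon, with 11.3 and 13.1 CPM at day 10 and 0.208 and 0.123 CPM at day 7. It had no count at 0 h, 6 h, day 3 or day 5, and the day 10 level was high in both libraries. Ifnk, Usp18 and Ifi44 passed the filter on low counts only through their day 10 level, so their rise was built in. Other named genes outside the gene lists, Apol9b among them, were not checked in this way. The rest of the 12 were Pglyrp2, Dpt and Apol9a, a neighbour of Apol9b with which it shares sequence. Pglyrp2, a peptidoglycan-cleaving amidase, reached 99.9 and 97.8 CPM at day 10, against 2.84 and 2.72 CPM at day 7, and Dpt, the matrix protein dermatopontin, 9.50 and 10.8 CPM at day 10 and 0.346 and 0.247 CPM at day 7. Pglyrp2 had 41 and 44 counts at day 7, against 0 and 1 at day 5, so it was present before BMP2 was removed.

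The 12 largest falls among called genes with at least 10 CPM on the higher side held 2 BMP and Notch related transcription factors, Hey1 and Dlx1, and a group that handles amino acids. Krt15, a keratin of basal epithelium, fell the most of these 12, with 27.3 and 36.8 CPM at day 10, against 239 and 275 CPM at day 7 (log2 fold change -3.00, SE 0.14, adjusted p = 1.14e-08). It had been switched on between day 3 (mean 1.19 CPM) and day 5 (mean 297 CPM). Slc7a1, a cationic amino acid transporter, had 15.5 and 11.5 CPM at day 10 and 53 and 65.5 CPM at day 7, and Slc6a9, a glycine transporter, 7.17 and 6.36 CPM at day 10, against 18.4 and 23.9 CPM at day 7. Ass1, which makes argininosuccinate, fell by 1.70 (SE 0.15) and Phgdh, which opens serine synthesis, by 1.82 (SE 0.20), both on the log2 scale. Among the rest, Lrrc8c, a subunit of volume-regulated anion channels, had 1.79 and 1.99 CPM at day 10 and 9.14 and 13.1 CPM at day 7. Ankrd1, a YAP target, had 3.94 and 5.51 CPM at day 10, against 13.3 and 18.3 CPM at day 7, and Adam19, a membrane metalloprotease, 3.23 and 3.83 CPM at day 10 and 9.62 and 12.1 CPM at day 7. Rasl11b and Skida1 were also among them, at -1.96 and -1.81. For none of these 12 genes did the day 10 and day 7 libraries overlap, which the choice of genes required.

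In absolute amount several of the largest gains were in genes of fat cells. Scd1, which puts the double bond into fatty acids, took 8.22% and 7.2% of all counts at day 10, against 4.54% and 3.12% at day 7 (log2 fold change 1.13, SE 0.33, adjusted p = 0.041). Its call was lost when any 1 library of day 3, day 5, day 7 or day 10 was left out (adjusted p 0.0521 to 0.21) and with a replicate block (adjusted p = 0.0746), and Scd1 shares sequence with Scd2, Scd3 and Scd4. Fabp4, whose product carries fatty acids in adipocytes, took 1.57% and 1.55% of counts at day 10, against 0.897% and 0.767% at day 7 (log2 fold change 1.03, SE 0.11, adjusted p = 3.15e-06). Cd36, a fatty acid transporter, had 4811 and 4849 CPM at day 10, against 2973 and 2378 CPM at day 7, and Bsg, a partner of lactate transporters, 5789 and 5248 CPM at day 10 and 3507 and 2654 CPM at day 7. Among the largest losses were Pank3, a kinase of coenzyme A synthesis, with 2792 and 3114 CPM at day 10, against 4761 and 4970.2 CPM at day 7, and Nedd4, a ubiquitin ligase, with 3413 and 3506 CPM at day 10 and 4911 and 5086 CPM at day 7. The translation elongation factor genes Eef2 and Eef1a1 followed, at -0.44 and -0.38 on the log2 scale, and Psap, a lysosomal activator protein gene, at -0.40.

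The pathway's own components were called in shares of 33.3% for receptors, 44.4% for SMADs and their ligases and 30.0% for antagonists, against 28.4% of all genes tested, and in both directions. Of 15 BMP ligand genes 3 were tested and none was called; Bmp4 had 9.41 and 9.50 CPM at day 10, against 8.52 and 9.26 CPM at day 7. Among 9 tested receptors and co-receptors 2 fell and 1 rose. Bmpr1a, the type I receptor with the highest count, had 728 and 752 CPM at day 10 and 888 and 914 CPM at day 7 (log2 fold change -0.28, SE 0.077, adjusted p = 0.0111), a fall that missed the threshold without day 7 replicate 2 (adjusted p = 0.0778) or day 10 replicate 1 (adjusted p = 0.0864). Bmpr2, the type II receptor, had 99.6 and 101 CPM at day 10, against 129 and 120.1 CPM at day 7 and was not called (log2 fold change -0.31, SE 0.19, adjusted p = 0.27), although it was without either day 5 library, without the filter or with only the 4 libraries fitted (adjusted p 0.00105 to 0.00973), at nearly the same fold change. Rgma, a BMP co-receptor, rose by 1.02 on the log2 scale, with 50.6 and 46 CPM at day 10 and 25 and 22.6 CPM at day 7. Bmpr1b was not tested, having 1 count over the 12 libraries. The groups did not overlap for Bmpr1a, Bmpr2 and Rgma, as for 67.2% of all genes tested. The day 10 libraries lay below the day 7 libraries for Bmpr1a and Bmpr2 and above them for Rgma.

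Among 9 SMAD genes and SMAD ubiquitin ligases 3 fell and 1 rose. Smad1, a transducer of BMP signals, had 21.9 and 19.5 CPM at day 10, against 29.3 and 27.2 CPM at day 7 (log2 fold change -0.45, SE 0.098, adjusted p = 0.0026). Its partner Smad5 had 88.2 and 91.1 CPM at day 10 and 100.1 and 106 CPM at day 7 and was not called (adjusted p = 0.0631, or 0.0261 to 0.0499 without either day 5 library, without the filter, with upper-quartile factors, with a replicate block or with only the 4 libraries fitted). Smad9 had 13 counts over all 12 libraries and was not tested. The ligase gene Smurf2 rose by 0.28 on the log2 scale. Of 10 tested BMP antagonists 2 rose and 1 fell. Fst, the follistatin gene, fell with 1.08 and 0.996 CPM at day 10, against 2.15 and 3.27 CPM at day 7, while Nog, the noggin gene, a secreted BMP antagonist that BMPs induce in many cells, rose with 6.27 and 5.67 CPM at day 10 and 3.74 and 3.89 CPM at day 7. The rise of Nog missed the threshold when any 1 library of 0 h, day 7 or day 10 was left out and with DESeq2 (adjusted p 0.0564 to 0.2).

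Most of the tested direct targets of BMP signalling fell. Of 22 BMP and SMAD1/5 targets 15 were tested, and 10 of them were lower at day 10 and 1 was higher (Nog), where 13.2% of all genes tested were lower and 15.1% higher. The median log2 fold change was -0.50, against 0.00 for all genes, and 6 of the 10 fell at least 2-fold. The other 4 were not called, with log2 fold changes of 0.68 for Msx2, 0.68 for Dlx3, 0.37 for Bambi and -0.47 for Msx1. For Msx2 and Dlx3 both day 10 libraries lay above both day 7 libraries. All 4 Id genes fell. Id2 had 132 and 141 CPM at day 10, against 314 and 327 CPM at day 7 (log2 fold change -1.23, SE 0.084, adjusted p = 2.1e-08). Id3 had 85.7 and 91.1 CPM at day 10 and 164 and 179.7 CPM at day 7 (-0.96) and Id4 2.51 and 2.45 CPM at day 10, against 8.31 and 7.78 CPM at day 7 (-1.69). Id1 had 83.4 and 75.8 CPM at day 10 and 104 and 108 CPM at day 7, a fall of 0.41 on the log2 scale (SE 0.081, adjusted p = 0.00111). For all 4 genes both day 10 libraries lay below both day 7 libraries.

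Several transcription factors among the targets fell too. Hey1, a repressor that BMP and Notch signals both induce, had 1.88 and 2.76 CPM at day 10, against 14.2 and 15.9 CPM at day 7 (log2 fold change -2.68, SE 0.22, adjusted p = 1.83e-07). Dlx1, a homeobox gene, had 1.61 and 2.22 CPM at day 10 and 11.7 and 11.8 CPM at day 7, and Atoh8, a basic helix-loop-helix gene, 17.9 and 16.3 CPM at day 10, against 46.9 and 56.5 CPM at day 7. Both had risen within 6 h of BMP2, Dlx1 by 1.39 and Atoh8 by 1.59 on the log2 scale. Both inhibitory SMADs were called: Smad7 had 37.6 and 38.5 CPM at day 10 and 95 and 99.4 CPM at day 7 (log2 fold change -1.35, SE 0.075, adjusted p = 2.02e-09), and Smad6 had 63.2 and 56.4 CPM at day 10, against 74.6 and 81.5 CPM at day 7 (log2 fold change -0.39, SE 0.099, adjusted p = 0.00785). The fall of Smad6 missed the threshold without day 7 replicate 2 (adjusted p = 0.0886) or day 10 replicate 2 (adjusted p = 0.106). Gata3, a zinc finger factor, had 81.7 and 79.3 CPM at day 10 and 111 and 117 CPM at day 7. Of the targets that fell, Id3, Id4, Hey1 and Gata3 were not called at 6 h against 0 h, and the others were called higher there.

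Against the level before BMP2, the targets had returned to different degrees by day 10, a comparison that called 82.7% of all genes tested, 42.8% higher and 39.9% lower. Smad7 lay below its 0 h level, with means of 38.1 CPM at day 10 and 63.3 CPM at 0 h (log2 fold change -0.73, adjusted p = 1.18e-07), and so did Dlx1 (-2.15, adjusted p = 6.92e-08). Atoh8 stayed slightly above its 0 h level (0.51, adjusted p = 0.000999). Id1, Id2 and Id3 stayed above theirs by 1.13, 0.91 and 1.04 on the log2 scale. Smad6 stayed far above it, with means of 59.8 CPM at day 10 and 6.54 CPM at 0 h (log2 fold change 3.18).

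**Figure D2:**
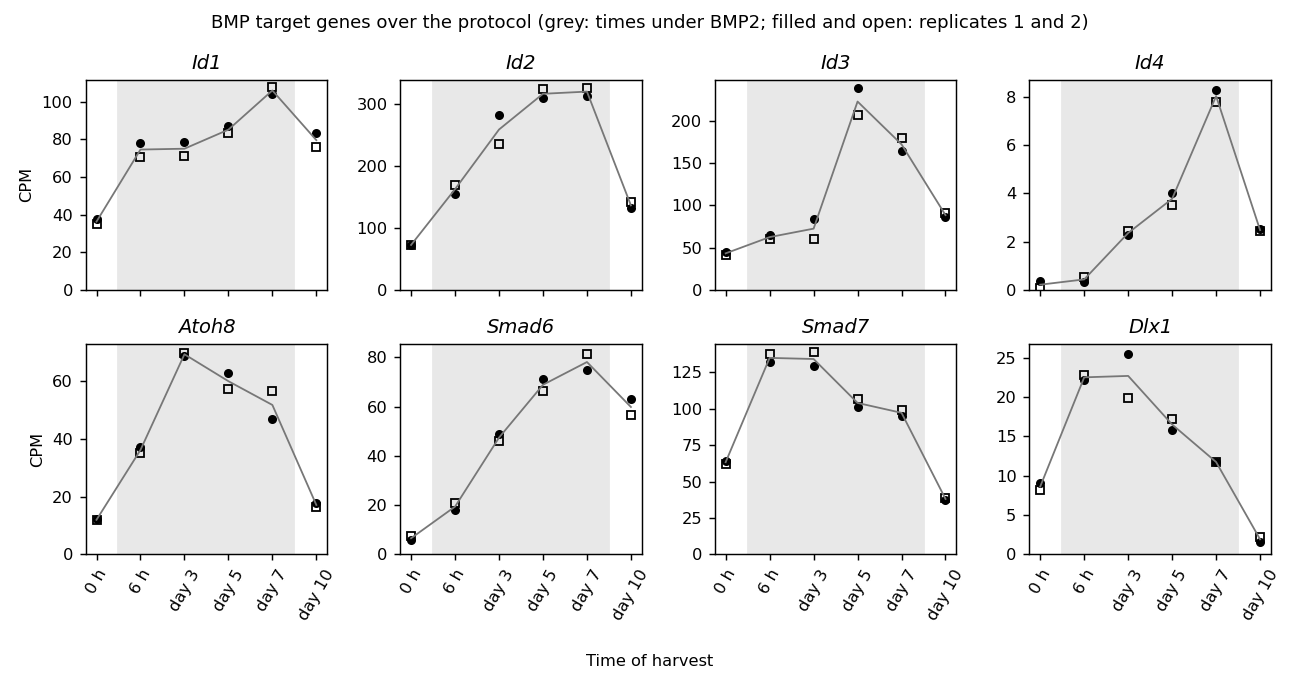
Level of 8 BMP target genes (CPM, vertical axis from 0) at each harvest time (horizontal axis), with filled circles for replicate 1, open squares for replicate 2 and a line through the mean; the times under BMP2 are shaded. The 8 genes are all among the targets called lower. Each was lower at day 10 than at day 7 in both libraries. Id2 had 132 and 141 CPM at day 10 and 314 and 327 CPM at day 7.

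The start of Id2's transcript gives an example of the sequence before a BMP target. It is shown because Id2 was the most abundant member that fell at least 2-fold. The 250 bases before the start lie at chr12:25096093-25096342 on the minus strand (RefSeq, GRCm38.p6), with the GC-rich SMAD1/5 motif GGCGCC in capitals, beginning 231 bases before the start.
Id2: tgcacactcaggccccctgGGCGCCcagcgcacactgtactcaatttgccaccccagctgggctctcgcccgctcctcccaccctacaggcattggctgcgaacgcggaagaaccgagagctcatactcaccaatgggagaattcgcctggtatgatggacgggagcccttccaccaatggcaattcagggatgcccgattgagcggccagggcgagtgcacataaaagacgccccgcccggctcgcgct
The motif was searched on both strands of the window from 250 bases before to 50 bases after the start. It stood in 3 of the 7 fallen BMP targets with a window (42.9%), and in 2463 of 10038 tested genes with one (24.5%). A match is only a description of the letters.

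The genes called 6 h after BMP2 was added were in part called again from day 7 to day 10. They moved there more often in the opposite direction than in the same one. No 6 h library without BMP2 was among the samples, so BMP2 and 6 h in culture cannot be told apart. At 6 h against 0 h, 95 genes were called (0.746%), 68 higher (0.534%) and 27 lower (0.212%). That count was 43 without 0 h replicate 1, 35 without 0 h replicate 2, 53 without 6 h replicate 1 and 40 without 6 h replicate 2. These 4 libraries are not among those of day 10 and day 7. Of the 68 genes higher at 6 h, 32 were lower at day 10 than at day 7 (47.1%, against 13.2% of all genes tested), 11 were higher and 25 were not called, with a median log2 fold change of -0.33. Of the 27 genes lower at 6 h, 11 were higher at day 10 (40.7%, against 15.1% of all genes tested) and 2 were lower, with a median of 0.26. Among the 20 genes that had risen at least 2-fold at 6 h (0.157%), 11 were lower and 2 higher at day 10 than at day 7.

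Several early genes did not follow this pattern. Sned1, a matrix glycoprotein gene, rose by 1.86 on the log2 scale at 6 h and by 0.57 at day 10, though the call at day 10 was lost without day 7 replicate 1 (adjusted p = 0.0668) or day 10 replicate 2 (adjusted p = 0.1). Has2, a hyaluronan synthase gene that rose by 1.26 at 6 h, was not called, with 37.4 and 41.4 CPM at day 10, against 46 and 44.2 CPM at day 7. Fibcd1 rose the most at 6 h, and by day 10 it had 0 counts in both libraries, against 5 counts over the day 7 libraries, and was not called.

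**Figure D3:**
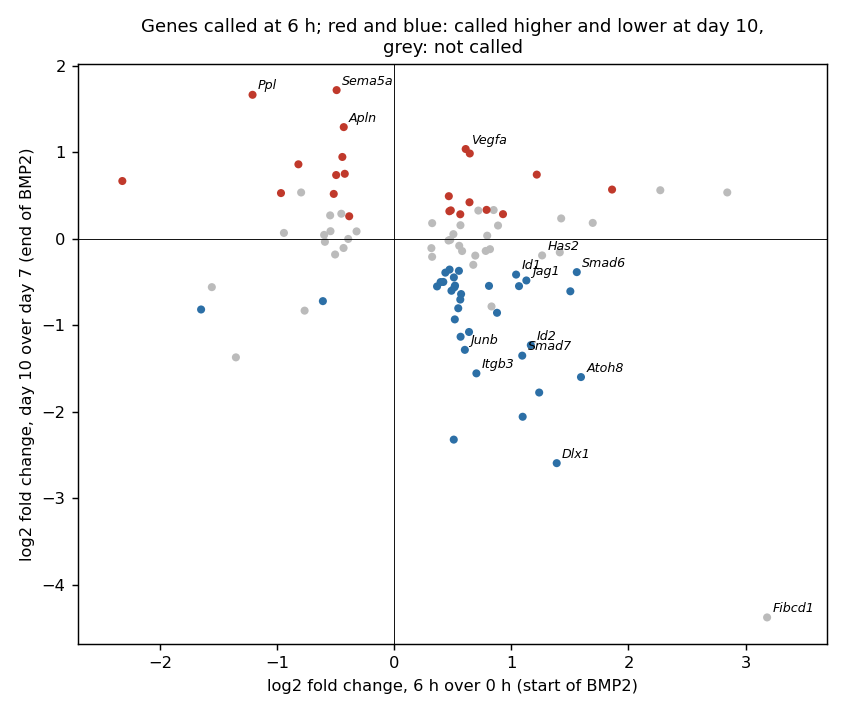
Each point is 1 of the 95 genes called at 6 h against 0 h, with its log2 fold change there on the horizontal axis and its log2 fold change of day 10 over day 7 on the vertical axis. Of the 68 genes to the right of 0, 32 are called lower at day 10 (blue) and 11 higher (red); grey points are not called, and the value of Fibcd1 depends on the prior count.

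Signalling pathways that meet BMP signals moved in part. Of 7 tested Notch targets 4 fell and none rose (13.2% of all genes tested were lower). Hes1, a repressor induced by Notch, had 38 and 38.7 CPM at day 10 and 69.1 and 77.2 CPM at day 7 (log2 fold change -0.93, SE 0.091, adjusted p = 1.37e-06), and Lfng, a glycosyltransferase that modifies Notch, 17.8 and 15.9 CPM at day 10, against 26.6 and 32.8 CPM at day 7. Of 13 WNT targets 3 fell and 1 rose (30.8% called, against 28.4% of all genes tested). The number that fell was 1 without day 7 replicate 2 or day 10 replicate 2, 5 with upper-quartile factors or with any 1 library of day 3 or day 5 left out, and 7 without the filter. Ccn4 was among those that fell, at -1.11 on the log2 scale, and Apcdd1, a WNT inhibitor, was the 1 that rose, at 0.95. The 22 TGF-beta targets split evenly, with 5 higher and 5 lower, or 3 lower without day 10 replicate 2 and 8 lower without the filter. Ski, a repressor of SMAD signalling, had 84 and 75.2 CPM at day 10 and 138 and 156 CPM at day 7, and Col1a1, a collagen gene, 8.69 and 6.97 CPM at day 10, against 3.12 and 4.01 CPM at day 7.

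The largest median change among the lists was a rise of interferon response genes. These encode antiviral proteins and are switched on in cells that sense interferons. Of 30 genes in the list 26 were tested, and all 26 were higher at day 10, where 15.1% of all genes tested were. The median log2 fold change was 4.08, with a range of 0.96 to 7.53, and 25 rose at least 2-fold. The 3 genes Oasl1, Usp18 and Ifi44 passed the filter on low counts only through their day 10 level, so their rise was built in; the other 23 also passed with the libraries of either day left out, and all 23 were higher, with a median of 2.86. Of the 4 genes not tested, Rsad2 had 10 and 2 counts at day 10 and 0 at all other times.

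Among the antiviral effectors, Ifit1, which binds foreign RNA, had 104 and 81.3 CPM at day 10 and 1.11 and 0.988 CPM at day 7 (log2 fold change 6.46, SE 0.25, adjusted p = 2.17e-10). Oasl2, of the oligoadenylate synthetase-like family, had 473 counts at day 10 and 3 at day 7, which makes a 199-fold ratio of CPM (95% interval from counting error 67.8 to 971). Ifi44 had 12.5 and 11.1 CPM at day 10, against 0.138 and 0.123 CPM at day 7, and Isg15, a ubiquitin-like modifier, 38.3 and 33.9 CPM at day 10 and 0.831 and 1.42 CPM at day 7. Neither library of day 10 came near the day 7 libraries for any of these genes. Ifit3 had 44 and 35.6 CPM at day 10, against 0.623 and 0.988 CPM at day 7, a value that is uncertain because Ifit3b, with 37.2 and 31.8 CPM at day 10 and 2.15 and 1.67 CPM at day 7, is a near-identical copy. Apol9b had 409 counts at day 10 and 1 at day 7, which makes a 518-fold ratio (95% interval from counting error 92.4 to 20500), and its neighbour Apol9a, with which it shares sequence, had 28.2 and 20.2 CPM at day 10, against 0.346 and 0.617 CPM at day 7. Mx2, a dynamin-like antiviral GTPase, had 23.7 and 20.8 CPM at day 10 and 0.762 and 0.926 CPM at day 7.

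The sensors and transcription factors of the response rose as well. Ddx58, the RIG-I sensor of viral RNA, had 280.2 and 252 CPM at day 10, against 50.1 and 54 CPM at day 7 (log2 fold change 2.35, SE 0.11, adjusted p = 5.36e-10), and Ifih1, the MDA5 sensor, 39.2 and 33.5 CPM at day 10 and 4.98 and 7.16 CPM at day 7. Dhx58, a related helicase, had 39.3 and 30.2 CPM at day 10, against 1.18 and 0.864 CPM at day 7, and Zbp1, a sensor of Z-form nucleic acids, 12.3 and 10.1 CPM at day 10 and 0.346 and 0.247 CPM at day 7. Day 10 was higher than day 7 in each library for all 4. Stat2, a transcription factor of the response, had 34.3 and 33.8 CPM at day 10, against 9.90 and 11.7 CPM at day 7 (log2 fold change 1.65, SE 0.14, adjusted p = 2.07e-07), and its partner Irf9 57.9 and 56 CPM at day 10 and 9.48 and 8.52 CPM at day 7. Irf7, which amplifies type I interferon production, had 91.5 and 73.7 CPM at day 10, against 10.9 and 12.8 CPM at day 7. Usp18, which dampens the interferon receptor, had 16.6 and 13.2 CPM at day 10 and 0.346 and 0.370 CPM at day 7.

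The list's median log2 fold change was -0.21 for day 7 over day 5. The means of Ifit1 were 0.346, 0.195, 2.36, 0.850, 1.05 and 92.8 CPM at 0 h, 6 h, day 3, day 5, day 7 and day 10. The summed level of the list was 2181 and 1948 CPM at day 10, against 514.9 and 515.9 CPM at day 7. The summed level of the 3 tested leukocyte markers, given above, was not higher at day 10. Of these markers 1 was called lower and 2 were not called, with a median log2 fold change of 0.29. Ptprc was at 0 counts in all 4 libraries. Which cells gave the rise of the interferon list was not tested.

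**Figure D4:**
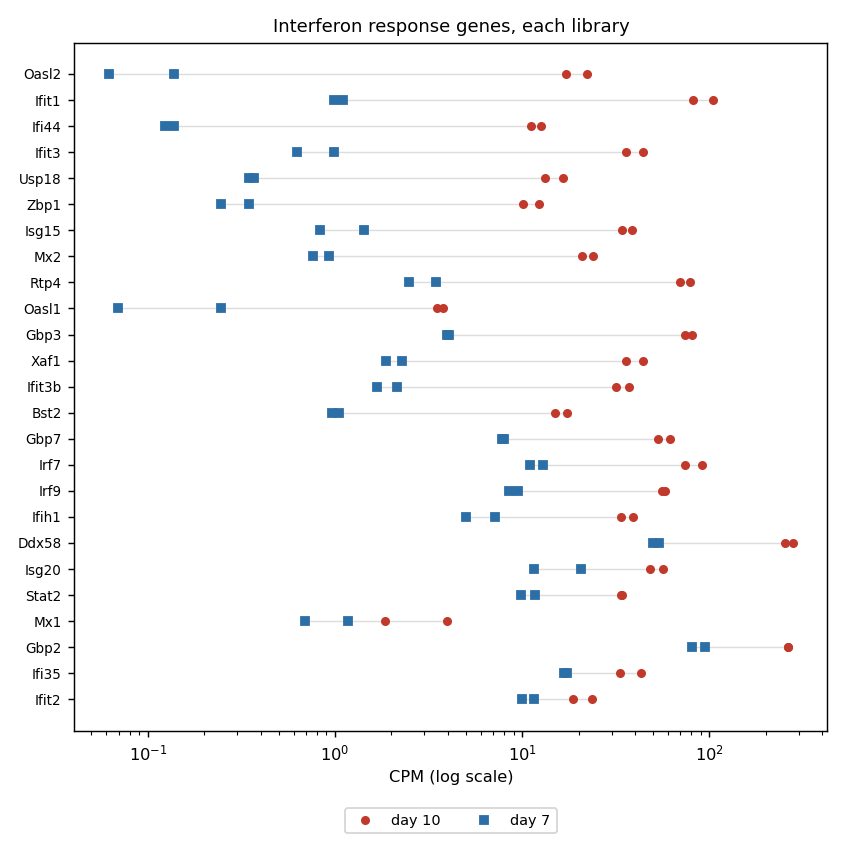
Level of 25 of the 26 tested interferon response genes (rows) in each library (CPM on a log axis), with red circles for day 10 and blue squares for day 7, ordered by fold change. All 25 genes drawn have both day 10 libraries above both day 7 libraries, from Oasl2 at 22.3 and 17.2 CPM at day 10 and 0.138 and 0.0617 CPM at day 7 to Ifit2 at 23.6 and 18.8 CPM at day 10 and 9.97 and 11.6 CPM at day 7.

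Sequences before the starts of 3 of these genes are shown because they carry the interferon-stimulated response element, a site through which interferons switch genes on. Capitals mark the motif, GAAA and GAAA with any 2 bases between them, which reads TTTC and TTTC on the other strand. Ifit1 lies at chr19:34640639-34640888 (plus strand), Ifit3 at chr19:34583279-34583528 (plus strand) and Isg15 at chr4:156200819-156201068 (minus strand), each being the 250 bases before the start (RefSeq, GRCm38.p6).
Ifit1: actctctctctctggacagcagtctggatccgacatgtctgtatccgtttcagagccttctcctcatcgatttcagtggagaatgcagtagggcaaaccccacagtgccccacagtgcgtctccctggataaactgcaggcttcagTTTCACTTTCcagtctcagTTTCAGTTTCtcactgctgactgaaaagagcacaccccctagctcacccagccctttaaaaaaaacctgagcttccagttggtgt
Ifit3: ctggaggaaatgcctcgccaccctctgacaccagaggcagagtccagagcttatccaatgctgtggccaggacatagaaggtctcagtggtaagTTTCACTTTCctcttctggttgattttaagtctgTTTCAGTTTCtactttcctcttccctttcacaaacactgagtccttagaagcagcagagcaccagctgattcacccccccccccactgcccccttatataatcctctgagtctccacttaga
Isg15: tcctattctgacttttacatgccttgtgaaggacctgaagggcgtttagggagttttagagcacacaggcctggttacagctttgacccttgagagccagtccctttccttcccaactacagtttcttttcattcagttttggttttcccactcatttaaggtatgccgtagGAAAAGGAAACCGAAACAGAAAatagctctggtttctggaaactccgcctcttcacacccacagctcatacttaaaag
Ifit1 holds 2 matches, which begin 104 and 85 bases before the start, Ifit3 holds 2, which begin 156 and 122 bases before it, and Isg15 holds 3 that overlap each other, the first beginning 78 bases before it. Over the window from 250 bases before to 50 bases after the start, and on both strands, the motif stood in 11 of the 20 interferon genes with a window (55.0%), and in 358 of 10038 tested genes with one (3.57%).

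Genes for MHC class I presentation, which interferons raise in many cells, moved with the list. Of 14 tested, 12 rose and none fell, where 15.1% of all genes tested were higher. The median log2 fold change was 0.90, and 6 were at least 2-fold higher. B2m, the light chain of class I molecules, had 646 and 625 CPM at day 10, against 304 and 312 CPM at day 7 (log2 fold change 1.04, SE 0.082, adjusted p = 1.08e-07). The peptide transporter gene Tap1 had 13.8 and 11.2 CPM at day 10 and 4.22 and 3.83 CPM at day 7, and the heavy chain gene H2-K1 177 and 177 CPM at day 10, against 93 and 85.4 CPM at day 7, which shares sequence with other H2 genes. Day 10 lay above day 7 in both libraries for all 14 genes, where groups did not overlap for 67.2% of all genes tested. Without day 7 replicate 1 or day 10 replicate 1, 7 of the 14 were called.
Of 15 tested inflammatory genes driven by NF-kB 2 rose and 3 fell (33.3% called, against 28.4% of all genes tested). Tnfaip3, a brake on NF-kB, had 14.6 and 14.9 CPM at day 10 and 3.88 and 4.20 CPM at day 7, whereas Ptgs2, the inducible prostaglandin synthase, had 6.09 and 7.51 CPM at day 10, against 19.5 and 18.4 CPM at day 7 and Csf1, a macrophage growth factor, 22 and 18.5 CPM at day 10 and 36.9 and 49.8 CPM at day 7.

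Fat cell genes rose further. Of 21 tested white adipocyte markers 14 were higher at day 10 and none lower (15.1% of all genes tested were higher), with a median log2 fold change of 0.70, after a median of 1.24 for day 7 over day 5. Leaving out Retn, which passed the filter only through day 10, 13 of 20 rose. Cfd, the adipsin gene, had 615 and 567 CPM at day 10, against 159 and 129.6 CPM at day 7 (log2 fold change 2.03, SE 0.12, adjusted p = 4.48e-08). Dgat2, which makes triglycerides, had 1274 and 1171 CPM at day 10 and 418 and 380.2 CPM at day 7, and Cidec, which fuses lipid droplets, 4468 and 4146 CPM at day 10, against 2751 and 2550.2 CPM at day 7. Slc2a4, the insulin-responsive glucose transporter, had 7.70 and 5.67 CPM at day 10 and 2.15 and 2.78 CPM at day 7. For each of these the libraries of the 2 days did not overlap. Plin1, the lipid droplet coat protein perilipin 1, had 1299.5 and 1153 CPM at day 10, against 1228 and 1149.6 CPM at day 7 and was not called (log2 fold change 0.04, SE 0.089, adjusted p = 0.751). Leptin, encoded by Lep, stayed low, with 5.46 and 7.66 CPM at day 10 and 2.84 and 2.65 CPM at day 7 (adjusted p = 0.00414, or 0.0839 without day 10 replicate 2).

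The transcription factors at the centre of fat cell formation moved less. Pparg had 336 and 342 CPM at day 10, against 254 and 239 CPM at day 7 (log2 fold change 0.46, SE 0.2, adjusted p = 0.134) and was not called. Like 67.2% of all genes tested, Pparg had groups that did not overlap, here with day 10 above day 7. It was called, at fold changes of 0.44 to 0.46 on the log2 scale, without either day 3 library, without the filter, with only the 4 libraries fitted (adjusted p 1.41e-06 to 0.000126) and with DESeq2 (adjusted p = 0.026). Cebpa had 495 and 444 CPM at day 10 and 419 and 458 CPM at day 7 (log2 fold change 0.10, SE 0.1, adjusted p = 0.52). Of 18 adipogenic factors 7 rose and 2 fell; 1 of the 7 passed the filter only through day 10, and 6 of the other 17 rose. Klf15, which glucocorticoids and fat cell formation induce, had 27.8 and 24 CPM at day 10, against 6.30 and 5.31 CPM at day 7 (log2 fold change 2.16, SE 0.18, adjusted p = 6.69e-07). Nr3c1, the glucocorticoid receptor gene, had 723 and 745 CPM at day 10 and 455 and 440.0 CPM at day 7, and Xbp1, a factor of secretory cells, 333 and 324 CPM at day 10, against 213 and 195 CPM at day 7. Without day 10 replicate 2, 4 of the 18 rose and none fell, and none fell without day 7 replicate 2 or day 10 replicate 1. Of 14 inhibitors of adipogenesis 5 fell and 2 rose. Gata2, which restrains preadipocytes, had 0 counts at day 10 and 16 at day 7, at least 4.22-fold lower when the 2 day 10 libraries together are set at 3 counts, with adjusted p = 0.0606 without day 10 replicate 2.

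Secreted hormones had the largest median rise among the fat cell lists. Of 19 tested adipokines and secreted hormones 12 were higher at day 10 and 2 lower, with a median log2 fold change of 0.91. Ghrh, named for the hormone that releases growth hormone, had 673 and 456 CPM at day 10 and 43.5 and 16.8 CPM at day 7 (log2 fold change 4.24, SE 0.49, adjusted p = 0.00231). It was higher in both day 10 libraries, although the adjusted p was 0.0552 when only the 4 libraries of day 10 and day 7 were fitted. Rarres2, the chemerin gene, had 331 and 326 CPM at day 10, against 51.3 and 40.9 CPM at day 7, and Apoc1, an apolipoprotein gene, 55.2 and 58.3 CPM at day 10 and 8.38 and 5.31 CPM at day 7. Apln, the apelin gene, had 219.8 and 213 CPM at day 10, against 91.7 and 85.1 CPM at day 7. The 2 that fell were Nampt, an enzyme of NAD synthesis that is also secreted, with 1749 and 1882 CPM at day 10 and 2407 and 2326 CPM at day 7, and Angptl2, with 35.7 and 30.3 CPM at day 10, against 37.5 and 50.5 CPM at day 7; the call of Angptl2 was lost without either 0 h library, day 7 replicate 2 or day 10 replicate 2 (adjusted p 0.052 to 0.378) and with a replicate block (adjusted p = 0.052). Retn, the resistin gene, had 2.69 and 4.52 CPM at day 10 and 0.554 and 0.864 CPM at day 7; it passed the filter only through day 10, 11 of the other 18 adipokines rose, and DESeq2 did not call it (adjusted p = 0.801).

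Of 28 PPAR target genes 13 rose and none fell (1 fell without the filter, with only the 4 libraries fitted or without day 10 replicate 2), with a median log2 fold change of 0.26. Pck1, of glycerol synthesis in fat cells, had 327 and 291 CPM at day 10, against 159 and 126 CPM at day 7 (log2 fold change 1.12, SE 0.13, adjusted p = 0.000172), and Ucp3, a mitochondrial carrier, 122 and 109 CPM at day 10 and 56.4 and 45.4 CPM at day 7. Of the 28 targets 2 passed the filter only through day 10, and 11 of the other 26 rose. Among 12 tested markers of brown and beige fat 2 were higher and 1 lower, or 4 higher and 3 lower without the filter and 4 higher without day 7 replicate 1. Of the 2 that were higher in the main fit, 1 passed the filter only through day 10, and 1 of the other 11 was higher. Cidea, a lipid droplet protein of brown fat, had 235 and 227 CPM at day 10, against 59.4 and 34.9 CPM at day 7 (log2 fold change 2.30, SE 0.24, adjusted p = 0.000769), whereas Ppargc1a, the coactivator of mitochondrial genes, had 32.7 and 32.9 CPM at day 10 and 57.2 and 73 CPM at day 7 (log2 fold change -0.99, SE 0.12, adjusted p = 1.1e-05). The brown fat uncoupling gene Ucp1 held 1 count over the 12 libraries.

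Genes of lipid synthesis rose. Of 27 fatty acid and triglyceride synthesis genes 17 were higher and 2 lower (70.4% called), with a median log2 fold change of 0.49. Fasn, fatty acid synthase, had 6676 and 5565 CPM at day 10, against 4059.8 and 4084 CPM at day 7 (log2 fold change 0.59, SE 0.086, adjusted p = 8.34e-05), and Pnpla3 132 and 125 CPM at day 10 and 58.8 and 52.3 CPM at day 7. Elovl6, which lengthens fatty acids, was 1 of the 2 that fell, with 86.5 and 101 CPM at day 10, against 148 and 189 CPM at day 7 (log2 fold change -0.85, SE 0.18, adjusted p = 0.00819), a call that was lost without day 7 replicate 2 (adjusted p = 0.0538) or day 10 replicate 1 (adjusted p = 0.0666). Of 17 lipid droplet and lipolysis genes 8 rose and 2 fell (58.8% called). Of 23 cholesterol synthesis genes 3 rose and 2 fell (21.7% called), or 7 and 4 with only the 4 libraries fitted. Of 46 nuclear genes of oxidative phosphorylation 1 rose and 6 fell (15.2% called, against 28.4% of all genes tested), with a median of -0.11. The number that fell was 2 without day 7 replicate 2 or day 10 replicate 2, 3 without day 7 replicate 1 or day 10 replicate 1, 10 with upper-quartile factors and 14 when only the 4 libraries were fitted. Ndufa4, a subunit of the chain, had 205 and 228 CPM at day 10 and 323 and 328 CPM at day 7. Of 19 genes of the tricarboxylic acid cycle 4 fell and none rose (21.1% called), and none fell without day 10 replicate 2. Of 24 fatty acid oxidation genes 5 rose and 1 fell, or 2 rose without day 7 replicate 2 or day 10 replicate 1.

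Enzymes that break down branched-chain amino acids rose in part, with 10 higher and 1 lower of 22 tested, though only 5 were higher without day 7 replicate 2 or day 10 replicate 1, and 6 without day 7 replicate 1. Ppm1k, the phosphatase that activates the branched-chain keto acid dehydrogenase, had 16.9 and 20.2 CPM at day 10, against 7.96 and 9.14 CPM at day 7, and Ivd 332 and 299.8 CPM at day 10 and 184 and 203 CPM at day 7. Of 23 peroxisome genes 8 rose and none fell, or 3 rose without day 7 replicate 2 or day 10 replicate 1. Scp2, a peroxisomal thiolase and lipid carrier, had 1046 and 1104 CPM at day 10, against 791 and 779 CPM at day 7.

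Most hypoxia response genes, which the factor HIF1 switches on when oxygen is short, rose. Of 17 tested, 12 were higher at day 10 and none lower, where 15.1% of all genes tested were higher. The median log2 fold change was 0.92, and the same list had a median of 1.05 for day 7 over day 5. Adm, the vasodilator peptide adrenomedullin, had 37.4 and 27.8 CPM at day 10 and 2.42 and 1.05 CPM at day 7 (log2 fold change 4.25, SE 0.25, adjusted p = 1.08e-08). Ankrd37 had 24.9 and 24.4 CPM at day 10, against 4.92 and 3.64 CPM at day 7, and Egln3, a prolyl hydroxylase that marks HIF proteins for destruction, 539 and 506 CPM at day 10 and 194 and 134 CPM at day 7. The angiogenic factor gene Vegfa had 1302 and 1176 CPM at day 10, against 626 and 581 CPM at day 7 (log2 fold change 1.04, SE 0.085, adjusted p = 1.82e-07). In all 4 both day 10 libraries lay above both day 7 libraries. The genes of the factors themselves were not called, with 268 and 279 CPM at day 10 and 292 and 287 CPM at day 7 for Hif1a and 60.9 and 52 CPM at day 10, against 66.2 and 67.2 CPM at day 7 for Epas1, although Epas1 was called lower (adjusted p = 0.0302) when only the 4 libraries were fitted.

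Glycolysis genes overlapped with this list in part. Of 20 tested 8 rose and 3 fell, with a median of 0.19, and none fell without day 7 replicate 2 or either day 10 library. Slc2a1, the basal glucose transporter, had 384 and 297 CPM at day 10 and 114 and 86.2 CPM at day 7 (log2 fold change 1.77, SE 0.14, adjusted p = 2.61e-06), and Pfkfb3, which makes the activator of phosphofructokinase, 71.1 and 61.6 CPM at day 10, against 14.3 and 11.7 CPM at day 7 (log2 fold change 2.35, SE 0.15, adjusted p = 1.33e-08). Hk2, a hexokinase, had 616 and 562 CPM at day 10 and 370.0 and 325 CPM at day 7, and Eno2, an enolase, 35.4 and 29.3 CPM at day 10, against 12 and 11.2 CPM at day 7. The abundant enzyme gene Aldoa was not called, with 5555 and 5076 CPM at day 10 and 5117 and 4614 CPM at day 7.

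**Figure D5:**
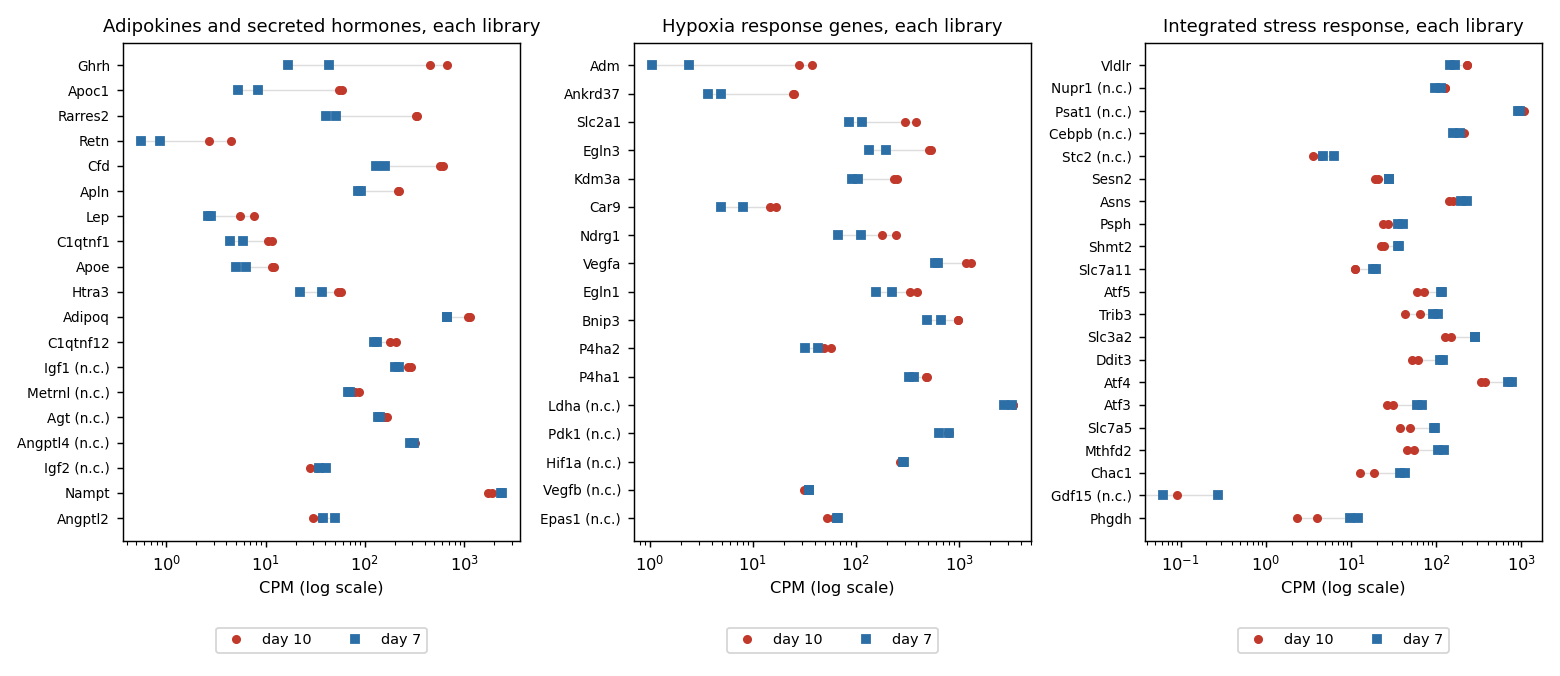
Level of each tested adipokine, hypoxia response and integrated stress response gene (rows, 3 panels) in each library (CPM on a log axis), with red circles for day 10 and blue squares for day 7 and genes not called marked n.c.; 1 day 10 value of Gdf15 is 0 and lies off the axis. Day 10 lies to the right of day 7 for 12 called adipokines and 12 called hypoxia genes, and to the left for 15 called stress response genes.

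Genes of the integrated stress response fell. In this response ATF4 raises amino acid supply and, in prolonged stress, genes of cell death. Of 21 tested 15 were lower at day 10 and 1 higher, where 13.2% of all genes tested were lower, with a median log2 fold change of -0.81 and 8 at least 2-fold lower. The same list had a median of 0.86 for day 7 over day 5; both comparisons share the day 7 libraries. Atf4 had 374 and 332 CPM at day 10, against 701 and 773 CPM at day 7 (log2 fold change -1.06, SE 0.089, adjusted p = 2.24e-07). Its means were 351, 372, 912, 407, 737 and 353 CPM from 0 h to day 10, so the day 10 level did not differ detectably from 0 h (log2 fold change 0.01, adjusted p = 0.924).

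The factors downstream of ATF4 fell with it. Ddit3, the CHOP gene, had 61.5 and 51.4 CPM at day 10 and 121 and 109.9 CPM at day 7, and Atf3 31.4 and 26.6 CPM at day 10, against 67.8 and 58.7 CPM at day 7. Chac1, which degrades glutathione, had 18.8 and 12.8 CPM at day 10 and 37.7 and 42.8 CPM at day 7 (log2 fold change -1.36, SE 0.16, adjusted p = 1.46e-05). Among the supply genes, Slc7a5 and Slc3a2 encode the light and heavy chains of a large neutral amino acid transporter. Slc7a5 had 49.1 and 37.5 CPM at day 10, against 94.5 and 96.5 CPM at day 7, and Slc3a2 151 and 127 CPM at day 10 and 282 and 284 CPM at day 7. Mthfd2, of mitochondrial folate metabolism, had 54.9 and 44.9 CPM at day 10, against 105 and 122 CPM at day 7. Each of these 6 genes was lower in both day 10 libraries than in both day 7 libraries. Psat1, of serine synthesis, was not called, with 1082 and 1036 CPM at day 10 and 899.7 and 964 CPM at day 7. The exception that rose was Vldlr, a lipoprotein receptor gene, with 227 and 232 CPM at day 10, against 167 and 146 CPM at day 7. Chaperones of the endoplasmic reticulum did not fall in step: of 24 heat shock and ER stress genes 7 rose and 3 fell, with Hsp90b1 at 0.53 and Herpud1 at -0.90.

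The sequences before Chac1 and Atf3 are shown because both hold TGATGNAA, the core of the C/EBP-ATF response element bound by ATF4. Capitals mark the motif, here on the strand opposite to the one spelled. Chac1 lies at chr2:119350992-119351241 (plus strand) and Atf3 at chr1:191183334-191183583 (minus strand), each being the 250 bases before the start (RefSeq, GRCm38.p6).
Chac1: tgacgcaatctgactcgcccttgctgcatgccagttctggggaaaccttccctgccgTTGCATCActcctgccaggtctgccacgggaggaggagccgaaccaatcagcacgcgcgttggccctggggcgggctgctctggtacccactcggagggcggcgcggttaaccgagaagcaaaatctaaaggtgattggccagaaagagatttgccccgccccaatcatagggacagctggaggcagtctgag
Atf3: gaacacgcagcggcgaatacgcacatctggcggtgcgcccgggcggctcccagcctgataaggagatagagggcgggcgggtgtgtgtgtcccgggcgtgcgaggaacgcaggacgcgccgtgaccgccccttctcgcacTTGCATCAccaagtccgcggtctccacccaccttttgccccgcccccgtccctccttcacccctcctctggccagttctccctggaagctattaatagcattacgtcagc
The match begins 193 bases before the start of Chac1 and 110 bases before that of Atf3. In windows from 250 bases before to 50 bases after the start, both strands, 5 of the 14 fallen members with a window held the motif (35.7%), and 272 of 10038 tested genes with one did (2.71%). No match overlapped with a match of the other motifs.

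Some ribosomal protein genes fell. Of 44 tested 19 were lower, 25 were not called and none was higher, where 13.2% of all genes tested were lower. The list had a median log2 fold change of -0.32 and a summed level of 4593 and 4552 CPM at day 10, against 5801 and 5924 CPM at day 7. Rplp0, of the ribosomal stalk, had 594 and 570.2 CPM at day 10 and 805 and 848 CPM at day 7 (log2 fold change -0.51, SE 0.074, adjusted p = 8.15e-05), and Rps3 449 and 451 CPM at day 10, against 556 and 571 CPM at day 7. These genes have many near-identical pseudogenes, so that low counts of single members are uncertain.

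Few cell division genes changed. Of 34 mitosis genes 33 were not called and 1 was higher, and the summed level was 116.1 and 132.3 CPM at day 10, against 108.3 and 126.2 CPM at day 7. Mki67, a marker of dividing cells, had 8.60 and 11.3 CPM at day 10 and 7.20 and 10.1 CPM at day 7, after a mean of 998 CPM at 0 h. Of 37 DNA replication genes 5 fell and 3 rose (21.6% called, against 28.4% of all genes tested). Mcm2 and Mcm7, helicase subunits, fell, with 7.08 and 5.44 CPM at day 10, against 10.4 and 14.9 CPM at day 7 for Mcm2 and 19.1 and 17.1 CPM at day 10 and 30.3 and 34.8 CPM at day 7 for Mcm7. Of 16 cell cycle inhibitors and quiescence genes 8 rose and none fell, or 5 without day 7 replicate 2 and 4 without either day 10 library; Ccng2, a cyclin of quiescent cells, had 257 and 256 CPM at day 10, against 174 and 174 CPM at day 7.

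Genes of the cytoskeleton and of the mesenchymal state fell in part. Of 19 mesenchymal markers 8 fell and 1 rose, or 5 fell without day 7 replicate 2 or day 10 replicate 1. S100a4, a calcium-binding protein of motile cells, had 318 and 410.2 CPM at day 10 and 733 and 962 CPM at day 7 (log2 fold change -1.22, SE 0.2, adjusted p = 0.00187), and Snai2, a repressor of epithelial genes, 7.35 and 8.65 CPM at day 10, against 14.9 and 16.8 CPM at day 7. Vim, the vimentin gene, had 2035 and 2322 CPM at day 10 and 2326 and 2434 CPM at day 7 and was not called. Of 20 actin and SRF targets 5 fell and none rose (3 fell without day 7 replicate 2 or day 10 replicate 1, and 8 without the filter or with only the 4 libraries fitted), among them Flna, an actin crosslinker, with 379.7 and 414 CPM at day 10, against 687 and 831 CPM at day 7. Of 21 YAP and TEAD targets 7 fell and 4 rose, or 3 fell without day 7 replicate 2; Ccn1 had 32.1 and 31.6 CPM at day 10 and 62.4 and 77 CPM at day 7. Of 10 epithelial markers 2 rose and none fell, and Krt18, a keratin of simple epithelium, had 45.3 and 41.6 CPM at day 10, against 29.4 and 28.7 CPM at day 7. Among 22 ERK feedback and target genes 3 rose and 3 fell (27.3% called). Fosl1, an AP-1 subunit, rose with 25.4 and 20.4 CPM at day 10 and 1.66 and 0.802 CPM at day 7 (log2 fold change 4.23, SE 0.23, adjusted p = 1.73e-09), while Dusp4, a phosphatase that restrains ERK, fell with 80.6 and 79 CPM at day 10, against 150.4 and 181 CPM at day 7.

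Matrix genes moved in both directions, and several bone genes rose. Of 33 collagen and matrix genes 7 rose and 4 fell, so that 33.3% were called, against 28.4% of all genes tested. The balance depended on the fit: 4 rose and 2 fell without day 7 replicate 2, and 11 fell without the filter or with only the 4 libraries fitted. Of the 7, 1 passed the filter only through day 10, and 6 of the other 32 rose. Fbln5, of elastic fibres, had 273 and 317 CPM at day 10 and 93.7 and 74.9 CPM at day 7 (log2 fold change 1.81, SE 0.12, adjusted p = 4.41e-08), and Fbln2 16.6 and 16.1 CPM at day 10, against 41.3 and 45.8 CPM at day 7. Of 11 tested osteoblast and chondrocyte genes 6 rose and none fell, or 3 rose without day 7 replicate 2, and 1 fell without the filter or with only the 4 libraries fitted. Of the 6, 1 passed the filter only through day 10, and 5 of the other 10 rose. Of the 11 bone genes 54.5% were called. Alpl, the alkaline phosphatase of bone, had 34.8 and 30.2 CPM at day 10 and 7.96 and 10 CPM at day 7 (log2 fold change 1.85, SE 0.2, adjusted p = 2.24e-05). It had been higher at day 5 than at day 7, with means of 19.8 CPM at day 5 and 8.98 CPM at day 7. Runx2, the factor that commits cells to bone, had 11.6 and 11.6 CPM at day 10, against 13.6 and 16.4 CPM at day 7 and was not called (log2 fold change -0.38, SE 0.25, adjusted p = 0.288), although it was without the filter (adjusted p = 0.0279) or with only the 4 libraries fitted (adjusted p = 0.0347).

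Further lists held smaller or mixed changes. Of 13 glucocorticoid response genes 5 rose and 2 fell; Hsd11b1, which reactivates glucocorticoids, had 2151 and 2203 CPM at day 10 and 1320.2 and 1081 CPM at day 7, and Sgk1, a kinase of salt and insulin signalling, 28.8 and 29.9 CPM at day 10, against 75.3 and 77.3 CPM at day 7. Of 17 circadian clock genes 6 rose and 1 fell, or 3 rose without day 10 replicate 1. Bhlhe41, a clock repressor, had 58 and 64.2 CPM at day 10 and 17.4 and 16.2 CPM at day 7, and Bhlhe40 167 and 155 CPM at day 10, against 76.7 and 76.5 CPM at day 7. Of 23 insulin and glucose uptake genes 6 rose and 4 fell; Igfbp5, which binds insulin-like growth factors, had 4.75 and 7.43 CPM at day 10 and 0.762 and 1.05 CPM at day 7, and Akt1, a kinase that relays insulin signals, 139.7 and 125 CPM at day 10, against 191 and 195 CPM at day 7. Of 24 antioxidant genes 4 rose and 3 fell (29.2% called, against 28.4% of all genes tested). Hmox1, haem oxygenase 1, had 202 and 153 CPM at day 10 and 90.4 and 90.6 CPM at day 7. Txnrd1, a thioredoxin reductase, had 50.2 and 47.8 CPM at day 10, against 76.6 and 87.9 CPM at day 7. Of 24 replication-dependent histone genes 6 rose and none fell, although members share sequence. Of 8 mammary luminal and milk genes 1 rose and 3 fell. Of 5 muscle markers 1 rose, Smtn, with 57.2 and 43.1 CPM at day 10 and 12.7 and 15.8 CPM at day 7, and of 5 endothelial markers 1 rose, Pecam1, with 3.40 and 3.98 CPM at day 10, against 1.52 and 1.42 CPM at day 7, a call that was lost without day 7 replicate 2 (adjusted p = 0.0597) or day 10 replicate 2 (adjusted p = 0.0733) and with DESeq2 (adjusted p = 0.0993).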

How the data were processed

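Counts of reads per gene, identified by Entrez ID, were deposited by the authors as raw counts in 1 table of 12 libraries. Per the labels' protocols, RNA (200 ng) was made into libraries with a stranded total RNA kit, although the labels also name poly-A selection, and the libraries were sequenced on an Illumina HiSeq. Per the submitters' processing notes, STAR and mm10 were used; neither the counting tool nor its annotation is given in the sources used here, so members of families with near-identical copies are uncertain. Gene symbols came from RefSeq (GRCm38.p6).

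The counts were fitted with edgeR 4.0.16 (R 4.3.3, limma 3.58.1) by the robust quasi-likelihood test, with TMM factors and 1 mean per time point over all 12 libraries (6 residual degrees of freedom). Of 17090 genes 4350 were removed by the filter on low counts (minimum count 10, minimum total 15), and p-values were adjusted by Benjamini-Hochberg over the 12740 left. Fold changes used a prior count of 0.125. The p-values measure the spread between 2 independent experiments, pooled over 6 time points. The common biological coefficient of variation was 0.0737. Intervals on count ratios (95%) and the floor of 3 counts cover counting error only. Alternatives were other scaling factors, other filters, DESeq2 1.42.0, the replicate number as a block, the 4 compared libraries fitted alone, a larger prior count (2), and every library left out in turn. Scripts were tested on simulated data.

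The comparison, the gene lists and the tests were chosen with earlier results of these data known. The rule for named genes took the 12 largest called rises and the 12 largest called falls with at least 10 CPM on the higher side and groups apart, key genes of the pathways, the 10 largest rises and falls at 6 h, and the 6 largest gains and losses in CPM. From each list it took 3 called members by size of change and 2 by abundance. Members outside this rule were chosen after their values were seen: Akt1, Angptl2, Apln, Atf3, Ddit3, Ddx58, Egln3, Elovl6, Epas1, H2-K1, Has2, Hif1a, Hk2, Hsp90b1, Ifih1, Ifit2, Ifit3b, Irf7, Irf9, Isg15, Mx2, Oasl1, Rps3, Ski, Slc3a2, Slc7a5, Stat2, Ucp3 and Vldlr. A few members of the lists are counted in their lists but not reported here by name.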

Additional observations from a re-analysis of the deposited data

How the results depend on the processing

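Of the 3615 genes called between day 10 and day 7, 3556 were shared with median-of-ratios factors (3583 called), 3494 with upper-quartile factors (3682 called), 2850 with DESeq2 (2904 called), 3410 without a filter (3931 called) and 3546 with only the 4 libraries fitted (4370 called). With each of the 12 libraries left out the count was 2143 to 3998, with 1202 to 2105 higher and 941 to 1894 lower genes. The day 7 against day 5 count was 3128 to 5154, and the 6 h against 0 h count was 35 to 141, or 275 without a filter. Replicate numbers gave no pairing by the correlation of their deviations (-0.0913 to 0.193 between time points, 0.0937 between day 10 and day 7); with a replicate block 3719 genes were called, 3559 of them shared. The interferon, BMP target, integrated stress response and hypoxia list counts stayed within 1.5 times of the reported ones in their leading direction. Uncalled values near 0 changed sign with libraries left out, over -0.01877 to 0.477 for Mki67 and -0.04418 to 0.1276 for Plin1 (log2). The causes of these shifts were not tested. Depth limits genes with few counts, such as Fibcd1, Gata2 and the 4 untested interferon genes.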

Other observations

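Lists of 3 further gene groups were written after the values were seen and are given as descriptions only. Interferon-inducible GTPases, which attack the membranes that shelter intracellular pathogens, were higher at day 10 for 12 of 13 tested members, with a median log2 fold change of 2.24. Iigp1 had 79.1 and 69.6 CPM at day 10, against 5.19 and 6.36 CPM at day 7 and Irgm2 45.6 and 37.1 CPM at day 10, against 5.33 and 4.88 CPM at day 7. Of 20 cytosolic aminoacyl-tRNA synthetase genes, which load amino acids onto tRNAs, 13 were lower and 2 higher at day 10, with a median of -0.42. Iars, the isoleucine enzyme, had 25.2 and 21.4 CPM at day 10, against 47.2 and 53.5 CPM at day 7. Of 11 tested complement genes 4 were higher and 1 lower, with C3, the central component, at 220.4 and 201 CPM at day 10, against 48.3 and 53.6 CPM at day 7 and Masp1 at 17.0 and 16.9 CPM at day 10, against 36.7 and 48.0 CPM at day 7.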
